A study of Mus musculus with 2 samples.

Results

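The genes described here are 10 genes with which cells of the mouse thymus present antigen on MHC class II. They are the chains of the classical class II molecules (H2-Aa, H2-Ab1 and H2-Eb1), the chains of H2-DM (H2-DMa and H2-DMb1) and of H2-DO (H2-Oa and H2-Ob), the invariant chain Cd74, the transactivator Ciita and the lysosomal reductase Ifi30. They were chosen by name and function from 23296 named genes. The rule itself uses no measured value, but it was set with earlier results of these data known. Where a gene had several RefSeq transcripts, the one whose RPKM averaged highest across the libraries stood for it. All 10 were listed in the files, and 9 of them reached a mean of 1 RPKM, the level from which a gene was counted as measured. RPKM counts the reads of a transcript relative to its length in kilobases and to the depth of the library.

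The study sequenced polyadenylated RNA of whole thymus from miR-146a Tg mice, which overexpress the microRNA systemically, and from WT mice. Both groups were of the Balb/c strain and 5 to 6 weeks old, and each gave 1 library, for which RNA of 1 male and 1 female mouse was pooled. The promoter of the transgene is not given in the sources used here. With 1 library per genotype there was no spread between animals and no test of the genotypes, so every value below compares these libraries. The RPKM values held whole reads in 100% of 30533 transcripts, at 15396696 fragments in the Tg library and 14522669 in the WT library. Intervals are exact 95% intervals on these fragments and cover counting error only. Thymocyte genes were abundant in both libraries, with Cd8b1 at 1063 RPKM in the Tg library and 945 RPKM in the WT library.

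Class II molecules show peptides from endocytosed proteins to CD4+ T cells. In the thymus they are carried by epithelial cells, dendritic cells, macrophages and B cells, and developing thymocytes are selected on them toward the CD4 lineage. The α and β chains assemble on the invariant chain, which is cut in the endosome to a short fragment that fills the groove. H2-DM then exchanges this fragment for peptide, and H2-DO binds to H2-DM and holds it back. CIITA does not bind DNA itself. It switches the genes on through proteins that occupy an X box and a Y box in their promoters.

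This promoter arrangement is shown because it is the known link between the members. RefSeq promoter windows (GRCm38.p6, 250 bases before to 50 bases after the start) were matched for 7 of the 10 genes. The Y box core ATTGG, searched on both strands, occurred in 6 of the 7 and in 37.4% of all 32851 windows, so that its presence alone sets no gene apart. The X box core GCAAC, any base, then GATG, followed on the same strand by ATTGG after 10 to 35 bases, occurred in only 2 of the 32851 windows, those of H2-Eb1 and of its relative H2-Eb2. A looser X box core, GNAAC with 3 further bases and TG, followed by ATTGG in the same way, added H2-DMb1 and H2-Ob and occurred in 0.295% of all windows. This core includes the stricter one. With GNAAC alone before the Y box, a form chosen after the promoters were seen, H2-Aa and H2-Oa were added as well, at a background of 4.19%. In the 5 member promoters below, the capitals mark GNAAC and ATTGG, and the cores start 30 to 33 bases apart.
H2-Aa, chr17:34287861-34287910, minus strand: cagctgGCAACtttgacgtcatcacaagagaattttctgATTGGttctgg
H2-Eb1, chr17:34305770-34305818, plus strand: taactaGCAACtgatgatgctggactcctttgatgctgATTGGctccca
H2-DMb1, chr17:34153091-34153140, plus strand: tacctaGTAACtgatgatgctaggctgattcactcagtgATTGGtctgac
H2-Oa, chr17:34092297-34092346, plus strand: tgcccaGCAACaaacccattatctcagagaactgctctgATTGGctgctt
H2-Ob, chr17:34238812-34238858, plus strand: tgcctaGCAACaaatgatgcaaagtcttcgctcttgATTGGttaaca

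The windows of H2-DMa and Ifi30 did not hold the arrangement. A match to these letters is a description and not a binding site, and a missing match says only that the letters are not in this window.

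The results showed lower RPKM in the Tg library for 9 of the 10 genes and a higher value for H2-DMa. Of the 9 measured genes, H2-Ob, H2-Aa and H2-Oa were lower in the Tg library by more than 1.5-fold (3 genes, 33.3%), while 6 lay within 1.5-fold and none was over 1.5-fold higher. Among all 11095 measured genes, 11.0% were over 1.5-fold lower and 7.74% over 1.5-fold higher. This split turned round, to 7.89% lower and 11.9% higher, when both libraries were rescaled to the same sum, whereas the same 3 class II genes stayed past 1.5-fold. The median log2(Tg/WT) was -0.49 over the 10 genes, -0.44 over the 9 measured and 0.03 over all measured genes. The counting interval of the ratio lay below 1 for 7 of the 9, against 27.2% of all measured genes, and above 1 for none of the 9, against 31.8%. In whole thymus, fewer cells that carry class II and less class II RNA per cell cannot be told apart.

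**Figure D1:**
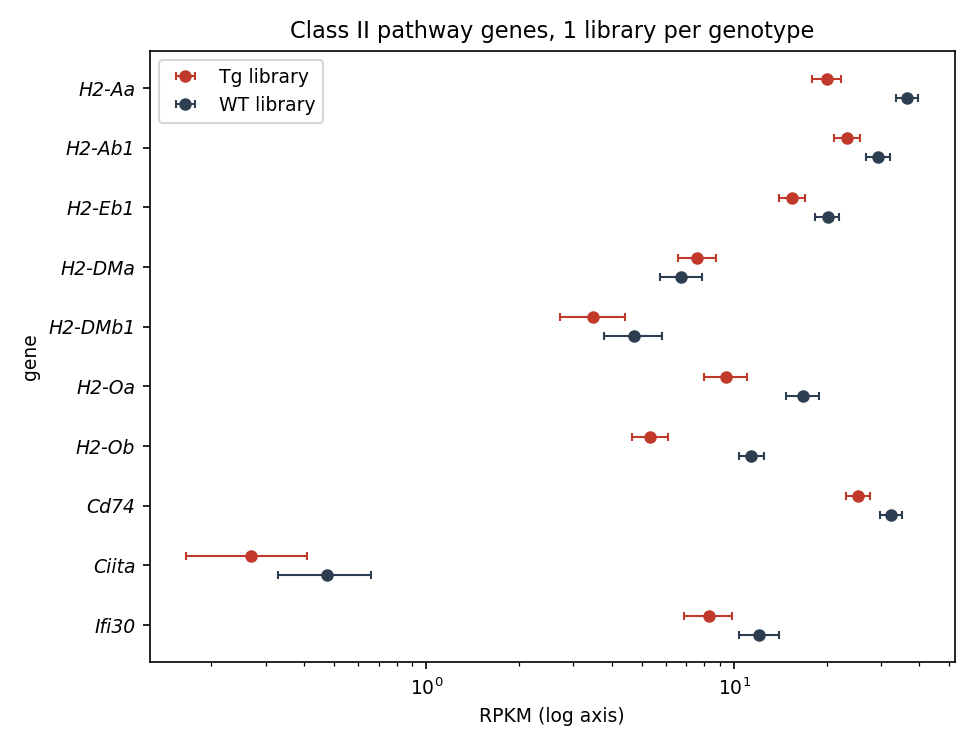
RPKM of the 10 genes in the Tg library (red) and the WT library (dark blue) on a log axis, with bars for exact 95% Poisson intervals of the fragment counts. The red point lies to the left of the blue point for each gene except H2-DMa, and Ciita lies far below the other genes, at 0.268 RPKM in the Tg library and 0.473 RPKM in the WT library.

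Among the classical chains, H2-Aa was the most reduced. H2-Aa encodes the α chain of the A molecule (GRCm38, chromosome 17, 34282744 to 34287823). Its level was 20.0 RPKM in the Tg library and 36.5 RPKM in the WT library, on 330 and 567 fragments. The Tg level was thus 1.82-fold lower, with a counting interval of 1.59 to 2.09.

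H2-Ab1, the β chain that pairs with H2-Aa, lies next to it (34263227 to 34269418). It stood at 23.4 RPKM in the Tg library and 29.4 RPKM in the WT library, on 429 and 509 fragments, which is a ratio of 0.795 with an interval of 0.698 to 0.906. It stayed within 1.5-fold, but the interval did not reach 1. H2-Eb1, the β chain of the E molecule (34305867 to 34316674), was likewise lower within 1.5-fold, with 15.4 RPKM in the Tg library and 20.1 RPKM in the WT library and a ratio of 0.767 (0.670 to 0.878). The α chain of the E molecule, H2-Ea, was not analysed here, since no transcript in the files carries its name in the reference tables. The 3 classical chains together had 0.684 times the summed RPKM of the WT library, at 58.9 RPKM in the Tg library and 86.0 RPKM in the WT library.

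The partner chains of the A molecule changed places in the order of levels. H2-Aa stood at 0.858 times the RPKM of H2-Ab1 in the Tg library, whereas it stood at 1.24 times in the WT library. The ratio of their Tg/WT ratios was 0.691, with an exact conditional interval of 0.570 to 0.836, so that the difference between the chains exceeded counting error. H2-Eb1 and H2-Ab1, a comparison added after the values were seen, kept about the same relation (0.661 in the Tg library and 0.685 in the WT library, ratio of ratios 0.965, interval 0.799 to 1.17). Balb/c mice carry another H-2 haplotype than the C57BL/6J mouse whose genome is the mm10 reference, and class II genes are among the most variable genes between haplotypes. How this affected mapping was not tested, so levels of different genes are less firmly compared than the libraries are.

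**Figure D2:**
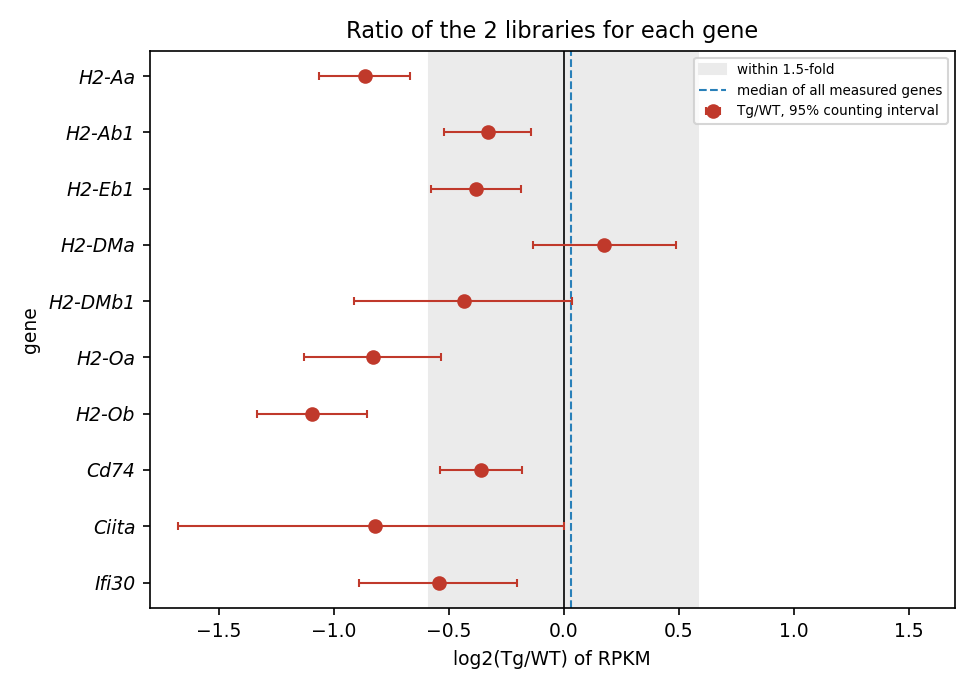
log2(Tg/WT) of RPKM for each gene, with exact 95% binomial intervals on fragments. The grey band spans 1.5-fold in either direction and the dashed line is the median of all measured genes (0.03). H2-Aa, H2-Oa and H2-Ob lie left of the band, Ciita does so with a wide interval, and only the intervals of H2-DMa and H2-DMb1 reach past 0.

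The chains of H2-DO were the most reduced pair. H2-Ob encodes the β chain (34238905 to 34245908) and had 5.33 RPKM in the Tg library and 11.4 RPKM in the WT library, on 219 and 441 fragments. Its Tg level was 2.13-fold lower (1.81 to 2.52), the lowest ratio of the 10 genes. H2-Oa, the α chain (34092379 to 34095234), had 9.41 RPKM in the Tg library and 16.7 RPKM in the WT library, and was 1.78-fold lower (1.45 to 2.19). Both chains of H2-DO thus lay past 1.5-fold, whereas of the A molecule only the α chain did. The ratio of ratios of H2-Oa to H2-Ob was 1.20 with an interval of 0.919 to 1.57, so that a difference between them was not detectable at this depth. H2-Oa lies inside BC051537, a long noncoding gene on the opposite strand, with which it shares 21.7% of its stretches of 50 bases. The strand setting of the counting is not given in the sources used here, so reads of this overlap are uncertain. BC051537 itself was low, at 1.13 RPKM in the Tg library and 1.40 RPKM in the WT library.

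Of the H2-DM chains, the α chain was the only one of the 10 genes with a higher value in the Tg library. H2-DMa, this α chain (34119693 to 34139101), stood at 7.60 RPKM in the Tg library and 6.73 RPKM in the WT library, on 194 and 162 fragments, and its ratio was 1.13 (0.912 to 1.40). H2-DMb1, a β chain (34153191 to 34160229), stood at 3.49 RPKM in the Tg library and 4.72 RPKM in the WT library, on only 69 and 88 fragments, and its ratio was 0.740 (0.532 to 1.03). The intervals of both include 1, and that of H2-DMb1 is wide for its few fragments, while its ratio is below those of H2-Ab1, H2-Eb1 and Cd74. Against each other, H2-DMa stood at 2.18 times H2-DMb1 in the Tg library and 1.43 times in the WT library, and the interval of the ratio of ratios, 1.03 to 2.27, barely excluded 1. Mice have another DM β gene, H2-DMb2, with which H2-DMb1 shares 27.2% of its stretches of 50 bases. Reads from such stretches map to more than 1 place and were not counted, so the levels of both are uncertain. H2-DMb2, on 85 and 120 fragments, had 4.21 RPKM in the Tg library and 6.31 RPKM in the WT library, a ratio of 0.668 (0.500 to 0.890), beside 0.740 for H2-DMb1. H2-Eb2, a relative of H2-Eb1, was below the measured level, with 13 fragments in the Tg library and 16 in the WT library.

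The balance of H2-DM to its inhibitor H2-DO differed accordingly, a comparison added after the values were seen. The summed RPKM of the DM chains was 0.752 times that of the DO chains in the Tg library and 0.407 times in the WT library. The ratio of ratios on summed fragments was 1.97, with an interval of 1.58 to 2.46. With H2-DMb2 added to the DM sum, DM stood at 1.04 times DO in the Tg library and 0.632 times in the WT library, with a ratio of ratios of 1.76 (1.45 to 2.15). Which of them was the more abundant in the Tg library therefore depends on that gene, whereas DM was higher relative to DO in the Tg library than in the WT library either way.

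**Figure D3:**
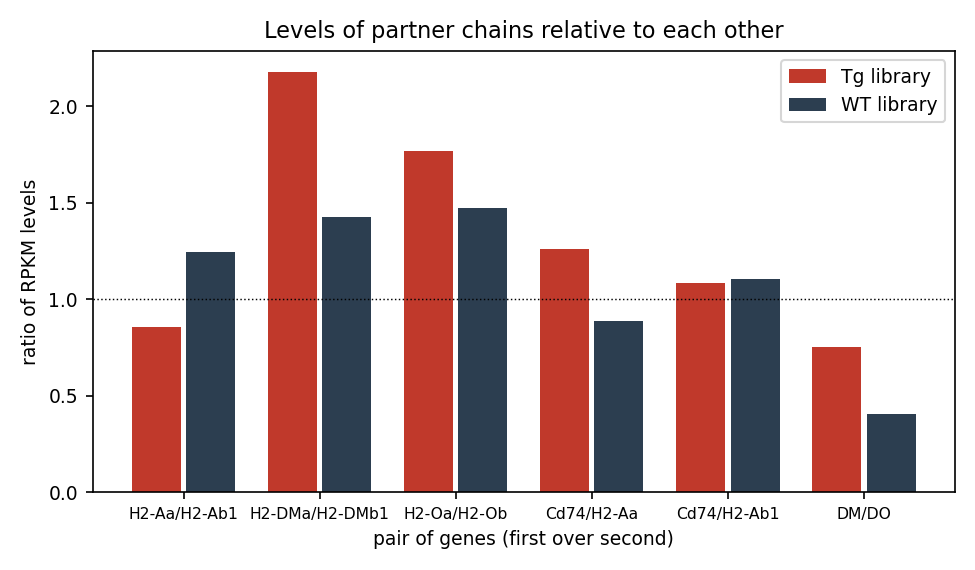
RPKM of a gene divided by that of its partner, in the Tg library (red bars) and the WT library (dark blue bars), with a dotted line at equal levels. DM and DO are sums of both chains. H2-Aa over H2-Ab1 lies below the line in the Tg library (0.858) and above it in the WT library (1.24), and DM over DO is 0.752 in the Tg library and 0.407 in the WT library.

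Cd74 was the most abundant of the 10 genes by mean RPKM. Its transcript NM_010545 stood at 25.3 RPKM in the Tg library and 32.4 RPKM in the WT library, on 476 and 576 fragments, which gives a ratio of 0.779 (0.689 to 0.882). The files also list NM_001042605, which overlaps it and shares most of its reads, with a ratio of 0.764 (0.674 to 0.865). Cd74 kept its place just above H2-Ab1, with a level 1.08 times that of H2-Ab1 in the Tg library and 1.10 times in the WT library (ratio of ratios 0.980, interval 0.818 to 1.17). Relative to H2-Aa it was higher in the Tg library, at 1.26 times H2-Aa there and 0.888 times in the WT library (ratio of ratios 1.42, interval 1.18 to 1.71).

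Ciita, the master regulator of the group on chromosome 16 (10480014 to 10531064), was below the level counted as measured. Its highest transcript, NM_001243761, had 21 fragments in the Tg library and 35 in the WT library, which correspond to 0.268 and 0.473 RPKM. The ratio was 0.566, and the interval of 0.313 to 1.00 ended just under 1, so a difference in this transcript was hardly detectable. The other Ciita transcripts in the files overlap it, and their intervals lay further below 1. NM_001243760, on 18 and 38 fragments, had a ratio of 0.447 (0.240 to 0.802). NM_007575, on 19 and 34 fragments, had a ratio of 0.527 (0.284 to 0.951). Ciita is transcribed from separate promoters in different cell types, but the shared exons give these transcripts most of their length, and they cannot be separated with so few fragments.

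Ifi30, which encodes GILT, a reductase that opens disulfide bonds of antigens in the lysosome, lies on chromosome 8 (70762773 to 70766663). Its level was 8.28 RPKM in the Tg library and 12.1 RPKM in the WT library, on 125 and 172 fragments, so that the ratio was 0.685 (0.540 to 0.868). It was lower beyond counting error and lay just inside 1.5-fold.

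Over the 10 genes, 2412 fragments were counted in the Tg library and 3293 in the WT library, and the summed RPKM was 119 and 170.6, a ratio of 0.695. Single ratios ran from 0.468 for H2-Ob to 1.13 for H2-DMa. The intervals of these genes, picked as the extremes after the values were seen, do not overlap. On summed fragments the ratio was 0.648 (0.587 to 0.715) for the α chains and 0.689 (0.637 to 0.744) for the β chains, with intervals that overlap.

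The 7 chains lie in a stretch of chromosome 17 together with other genes, and the neighbours were compared as far as H2-K1 on the one side (33996012) and Notch4 on the other (34588543). Of 13 other measured genes in this stretch, 11 lay within 1.5-fold, 1 was lower and 1 higher by more than that. Their median log2(Tg/WT) was -0.08, against -0.44 for the 7 chains. The 13 include H2-DMb2, itself a class II gene, and without it the median of the other 12 was -0.04. The lower gene was H2-K1, a heavy chain of MHC class I that has close paralogs, at 66.2 RPKM in the Tg library and 152 RPKM in the WT library. The higher gene was Col11a2, a collagen chain, at 6.99 RPKM in the Tg library and 4.52 RPKM in the WT library. The genes of class I peptide supply that stand between the class II genes lay within 1.5-fold. The immunoproteasome subunit Psmb8 had 236 RPKM in the Tg library and 237 RPKM in the WT library, and the peptide transporter subunit Tap2 had 102 RPKM in the Tg library and 84.4 RPKM in the WT library. Genes over 1.5-fold lower and genes within 1.5-fold thus lay side by side in this stretch.

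**Figure D4:**
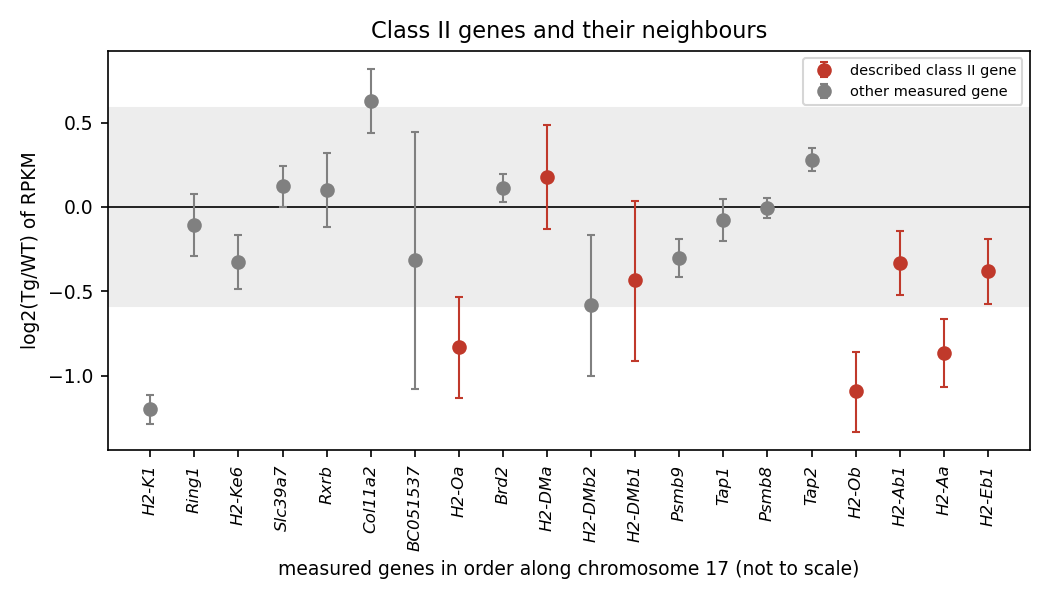
log2(Tg/WT) of RPKM for the 20 measured genes from H2-K1 onward, in their order along chromosome 17 and not to scale, with exact 95% binomial intervals. The 7 class II chains are red, other genes grey, and the band spans 1.5-fold. H2-Oa, H2-Ob and H2-Aa lie below the band, and Brd2, Tap1, Psmb8 and Tap2, which lie between class II genes, are inside it.

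RNAs for the proteins that bind the X and Y boxes lay within 1.5-fold. Of 19 measured genes of class II transcription, 18 lay within 1.5-fold and 1 was lower, with a median log2(Tg/WT) of 0.00. Rfx5, a subunit of the factor that binds the X box, stood at 16.7 RPKM in the Tg library and 12.3 RPKM in the WT library (ratio 1.36, interval 1.24 to 1.49), and Nfyc, a subunit of the Y box factor, at 15.2 RPKM in the Tg library and 10.3 RPKM in the WT library. The other subunits, Rfxank, Rfxap, Nfya and Nfyb, also stayed within 1.5-fold, with ratios from 0.924 to 1.35. These factors are expressed in most cells, whereas CIITA is restricted to cells that carry class II or is induced by interferon-γ.

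On the interferon-γ route to Ciita, the receptor chain Ifngr1 stood at 171 RPKM in the Tg library and 146 RPKM in the WT library, the kinase Jak1 at 121 and 146 RPKM in the Tg and WT libraries, and Irf1, a transcription factor induced by interferon-γ, at 19.0 RPKM in the Tg library and 23.1 RPKM in the WT library. These lay within 1.5-fold, as did Jak2 at a ratio of 0.698.

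Among genes that process the invariant chain and antigen, 8 were measured, of which 2 were lower, 1 was higher and 5 lay within 1.5-fold (median log2 of -0.09). The lower genes were the cathepsins that cut the invariant chain in its last step. Ctsl, which does so in cortical epithelium, stood at 104 RPKM in the Tg library and 673 RPKM in the WT library, and Ctss, which does so in dendritic cells, B cells and macrophages, at 6.51 RPKM in the Tg library and 20.3 RPKM in the WT library. Ctss was thus at 0.320 times its WT level (0.261 to 0.390), a larger difference than in any of the 10 class II genes. These are levels in whole thymus, and which cells gave the Ctsl and Ctss reads was not tested. The summed level of the cortical epithelial markers described below was 13.0 RPKM in the Tg library and 13.3 RPKM in the WT library. Lgmn, which makes an early cut in the invariant chain, was higher, with 3.36 RPKM in the Tg library and 2.02 RPKM in the WT library (ratio 1.66, interval 1.18 to 2.36). Ctsd (199 RPKM in the Tg library and 215 RPKM in the WT library), Ctsz and Ctsb lay within 1.5-fold. On the side of the T cell, Cd4, the coreceptor that binds class II, stood at 443 RPKM in the Tg library and 413.5 RPKM in the WT library, and Lag3, an inhibitory receptor for class II, at 5.87 RPKM in the Tg library and 5.47 RPKM in the WT library.

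Markers of the cells that carry class II were compared because several cell types contribute to these reads. Of 11 B cell markers, 9 were in the files and 5 were measured, and 2 of these were lower by more than 1.5-fold, with none higher. The measured markers had a median log2(Tg/WT) of -0.47. The summed level of the list was 25.3 RPKM in the Tg library and 35.7 RPKM in the WT library, a ratio of 0.709. Ms4a1, which encodes CD20, had 1.86 RPKM in the Tg library and 5.82 RPKM in the WT library, and the kinase Blk 2.47 RPKM in the Tg library and 4.62 RPKM in the WT library. Cd79b, part of the B cell receptor, had 11.3 RPKM in the Tg library and 11.9 RPKM in the WT library, whereas Cd79a (ratio 0.729) was lower beyond counting error but within 1.5-fold. The B cell markers were thus uneven, and Cd22 (ratio 1.03) and Ebf1 (ratio 0.943), below the measured level, had intervals that include 1. B cells are a main site of H2-DO expression. The part of B cells in the class II values was not tested.

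Of 12 macrophage markers, 11 were in the files and 6 were measured, with a median log2 of -0.11 and 1 lower gene. Their summed level was 53.4 RPKM in the Tg library and 76.3 RPKM in the WT library, and most of it came from the lower gene, Lyz2 (34.7 RPKM in the Tg library and 56.2 RPKM in the WT library), which neutrophils express as well. The complement genes C1qa, C1qb and C1qc had ratios of 0.757, 1.17 and 0.969. The defining marker Adgre1, on 18 fragments in the Tg library and 38 in the WT library, was below the measured level in both. Its ratio was 0.447 (0.240 to 0.802). The other macrophage markers below that level, Mertk, Fcgr1, Marco and Cd14, had intervals that include 1. The part of macrophages was not tested.

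Dendritic cell and epithelial markers had medians closer to 0 or above it. Of 11 dendritic cell markers 4 were measured, all within 1.5-fold (median log2 of 0.19, summed level 11.5 RPKM in the Tg library and 12.0 RPKM in the WT library). Itgax, which encodes CD11c, was below the measured level, with 31 fragments in the Tg library and 63 in the WT library, a ratio of 0.464 (0.292 to 0.724). Of 10 cortical epithelial markers 4 were measured, with Psmb11 at 3.21 RPKM in the Tg library and 2.69 RPKM in the WT library and only Ccl25 lower (1.62 RPKM in the Tg library and 2.61 RPKM in the WT library, interval of the ratio 0.367 to 1.03). Of 11 medullary markers 3 were measured, all within 1.5-fold, while Aire had 2 fragments in the Tg library and none in the WT library, and Fezf2 had 1 in each. Cldn3 and Trpm5 had no fragment in either library. The summed level of the epithelial lists was 13.0 and 11.8 RPKM (cortical and medullary) in the Tg library and 13.3 and 11.5 RPKM in the WT library. Of 7 markers of fibroblasts and endothelium only Pecam1 was measured (ratio 1.04). The collagens of this list were below the measured level and differed in direction, with 12 fragments of Col1a1 in the Tg library and 3 in the WT library, but 9 of Col1a2 in the Tg library and 91 in the WT library. The part of these cells was not tested. All 10 thymocyte markers were measured, with a median log2 of 0.18, and 1 of them, Ptcra, was over 1.5-fold higher. Cd3g (ratio 0.677, interval 0.661 to 0.694) and Cd3d (ratio 0.766, interval 0.742 to 0.791) were lower within 1.5-fold. The rest of this list had ratios above 1.

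**Figure D5:**
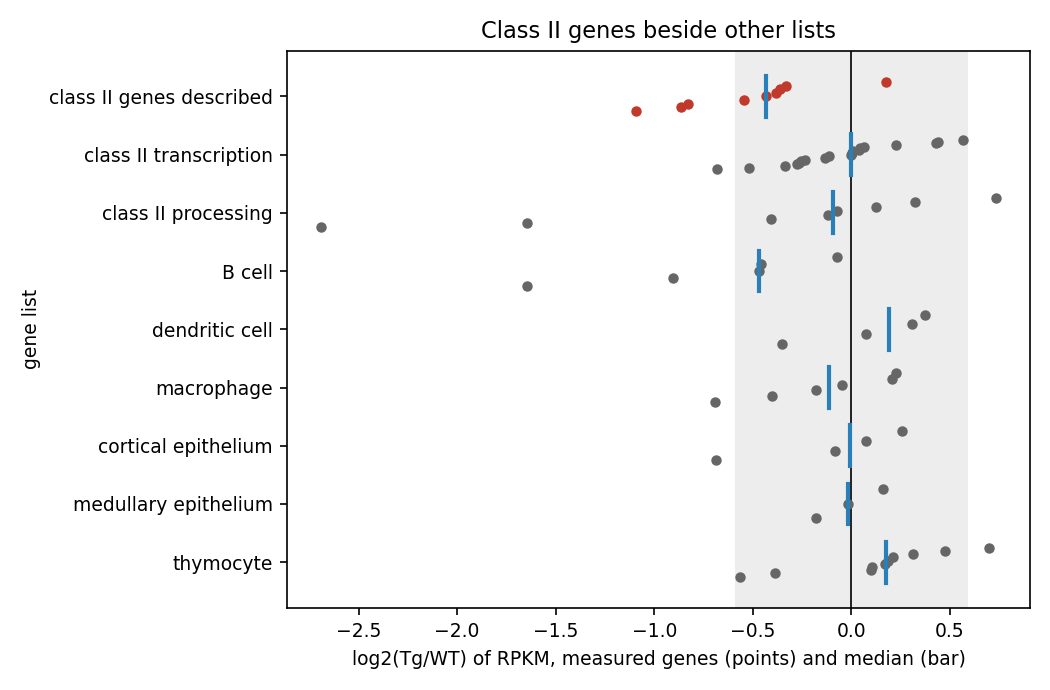
log2(Tg/WT) of RPKM for the measured genes of each list (points, spread vertically in order of value) with the median of the list (blue bar) and the 1.5-fold band in grey. The class II genes (red, median -0.44) and the B cell markers (median -0.47) lie to the left, while dendritic cell (0.19) and thymocyte (0.18) medians lie to the right of 0.

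Finally, the 3′ UTRs were searched for the miR-146a seed, since the Tg mice overexpress this microRNA. Its mature sequence from the RefSeq table (GRCm38.p6, chr11:43374435-43374456, minus strand) is shown with the seed, bases 2 to 8, in capitals.
mmu-miR-146a-5p: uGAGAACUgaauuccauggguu

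The 8-base match AGTTCTCA and the 7-base matches AGTTCTC and GTTCTCA were searched on the sense strand in the longest annotated 3′ UTR of each gene, which was found for 9 of the 10, all but Ifi30. None of the 9 held a match, neither H2-Ob (1785 bases of 3′ UTR) and H2-Aa (300.0 bases) nor Ciita (2676 bases). Among 10260 searched genes at the measured level, 18.9% held a 7- or 8-base match and 4.04% the 8-base match. Most members have short 3′ UTRs, with 228 bases in H2-Oa, 291 in H2-DMb1 and 311 in H2-Ab1, against a median of 1033 bases over all searched genes. The annotation is that of the C57BL/6J reference, and matches elsewhere in the transcripts were not searched.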

How the data were processed

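Polyadenylated thymus RNA was sequenced by the authors on an Illumina HiSeq, mapped to mm10 (submitters' processing notes) with a program spelled HotHap2, and counted from uniquely mapped reads. The authors deposited RPKM values per RefSeq transcript, 1 file per library, although the paper's text names a fragment-based unit. The mapper's version is not given in the sources used here.

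Transcript IDs were matched to symbols in RefSeq (GRCm38.p6) and GENCODE M21 tables (98.9% of 30533). Whole reads were recovered from the RPKM values at a relative tolerance of 1e-09, with 2 reads as 1 fragment; a transcript at the value of 1 read was taken as having none, and 3 fragments, which a count of 0 allows, equal 0.195 RPKM (Tg) and 0.207 RPKM (WT) on 1 kb. No count test was run, because 1 library per genotype gives no test. Each ratio divides the Tg value by the WT value without a pseudocount; intervals are exact binomial, Poisson or conditional odds ratio intervals at 95%, which cover counting error only. The recovery and the intervals were tested on simulated data.

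The members and lists were chosen with earlier results of these data known. Named were all members, other class II genes, and from each other list the genes past 1.5-fold and the 3 with the highest mean; other names were chosen after their values were seen. Some genes counted in the lists are not reported here by name. Alternatives were floors of 5 RPKM and none, pseudocounts of 1 and 0.1, median centring, rescaling to 1 sum, upper quartile scaling, sums or means of transcripts, and subtraction of a running median over length (401 genes). Python 3.11.15, numpy 2.4.6, pandas 2.3.3, scipy 1.17.1 and matplotlib 3.10.9 were used.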

Additional observations from a re-analysis of the deposited data

How the results depend on the processing

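No paired analysis was possible because each genotype had 1 library, and no replicate could be left out. Across the 10 alternatives, 3 or 4 of the 10 class II genes were lower by more than 1.5-fold (4 with no floor, where Ciita was counted, and with summed transcripts, where Ciita passed the floor) and 0 were over 1.5-fold higher. The median log2(Tg/WT) of the members ran from -0.53 with upper quartile scaling to -0.36 with a pseudocount of 1 RPKM or with both libraries rescaled to 1 sum. That rescaling moved the median of all measured genes to 0.16, against 0.03 in the values as deposited, and 9 of the 10 members stayed below 0 under each alternative but the floor of 5 RPKM, which kept 8 members, 7 of them below 0. H2-DMa was above 0 under all 10. H2-Ob ranged from -1.16 to -0.97, H2-Aa from -0.90 to -0.74, H2-Oa from -0.87 to -0.71 and H2-DMa from 0.13 to 0.30. Ciita moved most, from -0.96 with summed or averaged transcripts to -0.22 with a pseudocount of 1 RPKM, within 1.5-fold. With H2-DMb2 added to H2-DM, chosen after seeing the data, the ratio of ratios of H2-DM to H2-DO was 1.76, against 1.97. All 98 single gene values under the alternatives lay within the counting interval of the value as deposited. With 56 fragments in all for Ciita and 157 for H2-DMb1, differences of the size seen in H2-Ab1 were not detectable for these genes.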
